A study of Homo sapiens with 30 samples.

Results

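Doxorubicin is an anthracycline that intercalates into DNA and traps topoisomerase II on broken DNA, and it belongs to the standard treatment of diffuse large B-cell lymphoma (DLBCL). The comparison described here set 3 libraries labelled OCI-LY3 and treated with 0.2 µM doxorubicin for 24 h against 3 untreated libraries of the same label collected at 0 h. OCI-LY3 is an established DLBCL cell line, and the labels give its genotype as wild type in both groups. Described are the genes with an FPKM (a fragment count scaled by transcript length and library depth) of at least 1 in at least 3 of these 6 libraries, which were 13271 of the 60656 genes listed. Of these, 12408 reached that level in both groups, counted as at least 1 such library in each, 797 only in treated and 66 only in untreated libraries. The series asks about non-canonical NF-kB signalling and glycolysis in lymphoma cells that resist the drug, and it treated HT, OCI-LY19 and SUDHL5, further DLBCL lines, in the same way with 3 libraries per group.

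No untreated culture was sampled at 24 h, so an effect of the drug and an effect of time in culture cannot be told apart. Titles of treated libraries name the drug but also contain ctrl, so grouping followed the treatment label. Between 24042778 and 27453170 reads had been assigned to each of the 6 libraries, which gave 24069 to 25747 genes above 0 in untreated and 25903 to 27260 in treated libraries. Transcripts of the mitochondrial genome took 16.2% to 18.3% of the summed FPKM in untreated and 19.2% to 19.9% in treated libraries. In bulk RNA, fewer cells of a kind and less RNA per cell cannot be told apart.

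The B cell label matched the data. Of 12 B cell markers 11 passed the level, and their summed FPKM was 2322 to 2650 in untreated and 1352 to 1540 in treated libraries. The 13 myeloid markers had no gene above 0.297 FPKM in any library. Of 14 T and NK cell markers TRAC and NKG7 passed, with list sums of 5.58 to 6.48 untreated and 6.46 to 9.98 treated, and of 15 stromal, epithelial and endothelial markers only DCN passed.

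The subtype usually given for OCI-LY3 did not match. The line is known as an activated B-cell-like DLBCL line, for which high IRF4, a transcription factor of activated B cells and plasma cells, is defining. IRF4 was 0.0390 to 0.399 FPKM in the untreated and 0.156 to 0.325 in the treated libraries, and PRDM1, the plasma cell repressor Blimp-1, was at most 0.0113 FPKM untreated. In contrast, several germinal center genes were high in untreated libraries, with BCL6 at 71.4 to 83.7 FPKM, S1PR2 at 68.2 to 81.6, SERPINA9 at 36.2 to 70.2 and MME, which encodes CD10, at 29.1 to 33.5. Other germinal center genes were low, with LMO2 at 0.810 to 1.61 FPKM, ELL3 at 1.45 to 1.65 and MAML3 at 0.501 to 0.589. Some genes of the activated B cell and plasmablast list were high, with JCHAIN, the joining chain of secreted antibody, at 401 to 423 FPKM, MZB1 at 77.2 to 86.7 and TNFRSF17, which encodes BCMA, at 7.54 to 11.5, each above the untreated libraries of the other 3 lines. The text below therefore speaks of untreated and treated libraries carrying the OCI-LY3 label and assigns no subtype.

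Several systems that doxorubicin can touch are well described in B cells. MYC drives transcription of genes for ribosome assembly and nucleotide synthesis. The germinal center repressor BCL6 and the B cell antigen receptor maintain B cell lymphomas, while NF-kB signals either through the canonical route, which acts by degradation of inhibitors such as IkB-alpha, or through the non-canonical route, in which the kinase NIK leads to processing of NFKB2 to p52, the partner of RELB. DNA breaks usually raise CDKN1A and MDM2, and they can slow the cell cycle before or after DNA replication.

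Of the 13271 genes, 6056 (45.6%) rose and 2410 (18.2%) fell at an adjusted p below 0.05, by limma's moderated test on log2(FPKM + 1) with Benjamini-Hochberg adjustment over all 17645 genes tested. Together these were 8466 genes (63.8%), and the remaining 4805 did not pass. A change of at least 2-fold on this scale, a log2 change of 1 or more in size, was reached by 983 of the genes that rose and 307 of those that fell. In 6061 genes (45.7%) every treated library lay above every untreated one, and in 2465 (18.6%) every treated library lay below. The median log2 change over all 13271 genes was 0.20, and the tenth and ninetieth percentiles were -0.48 and 0.90. Each log2 change below is treated minus untreated on log2(FPKM + 1), given with its standard error (SE), so it understates the change of low genes.

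The direction of change went with the level of the gene. Among 2504 genes with a mean below 2 FPKM, 53.4% rose and 7.07% fell, whereas among 810 genes with a mean of at least 50 FPKM, 19.5% rose and 42.7% fell. Part of this was fixed by the choice of members, since a gene at the level only in treated libraries had to be higher. Among the genes at the level in both groups, 35.9% rose and 6.86% fell below 2 FPKM, 52.5% rose and 11.3% fell from 2 to 5 FPKM, and the shares at 50 FPKM and above were as given. The split of the calls also went with the scaling. Of the calls on the deposited values 71.5% were upward. A scaling by the median of ratios moved the median change of all genes from 0.20 to 0.0 and lowered changes by unequal amounts. Under it 4068 genes were called higher and 4041 lower (50.2% upward). Quantile normalization called 3927 higher and 3602 lower (52.2% upward). Lists of genes are therefore read against the median of 0.20 and the shares of all genes, 45.6% higher and 18.2% lower. Counts under the median-of-ratios scaling are given for lists whose balance it turned.

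The 3 treated libraries differed in the size of the response. Replicate 2 held the lowest treated value in 725 of the 983 genes that rose at least 2-fold, and the highest treated value in 238 of the 307 that fell at least 2-fold. The median rise of the 983 genes was 1.35 in treated replicate 1, 1.12 in replicate 2 and 1.27 in replicate 3. The first principal component, with 77.4% of the variance, separated the groups and placed treated replicate 2 nearest to the untreated libraries, at 26.9 against 41.8 and 36.1 for the other treated and -36.7 to -33.2 for the untreated libraries.

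**Figure D1:**
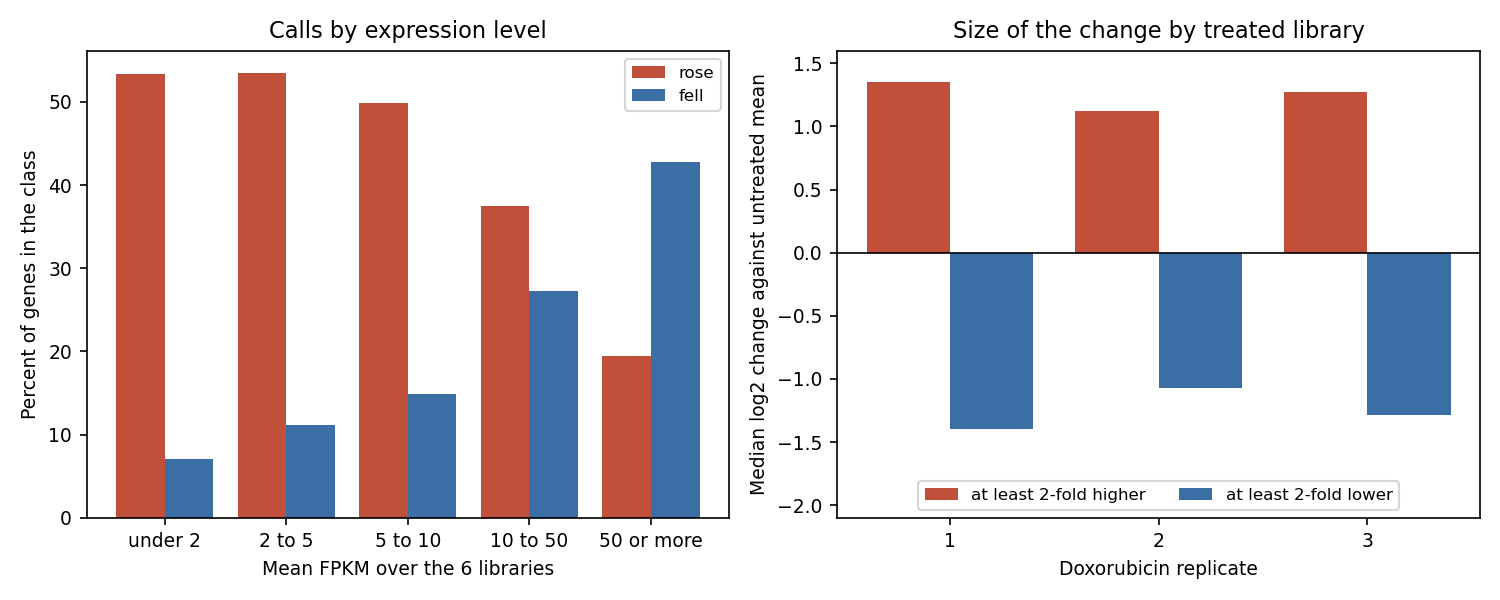
Direction of change by expression level, and size of the response in each treated library. One panel gives, for 5 bins of mean FPKM over the 6 libraries, the percent of genes that rose and fell at an adjusted p below 0.05; the other gives the median log2 change of the genes at least 2-fold higher or lower in each treated library against the untreated mean. The share that rose went from 53.4% in the lowest to 19.5% in the highest bin, and treated replicate 2 had the smallest median change, at 1.12 upward and -1.07 downward.

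The largest rises among well expressed genes covered diverse functions. CDH24, a cadherin of cell adhesion, was 0.438, 0.708 and 0.720 FPKM untreated and 12.9, 11.2 and 11.03 treated, so no untreated library came near a treated one (log2 change 2.97 ± 0.10 SE, adjusted p = 2.57e-13). IDH2, the mitochondrial NADP-dependent isocitrate dehydrogenase, was 10.7, 8.55 and 13.4 FPKM untreated and 95.0, 71.3 and 91.3 treated (2.88 ± 0.17, adjusted p = 1.77e-10). Every treated IDH2 value was more than 5-fold above the highest untreated one. PFKFB4, which makes the activator of phosphofructokinase, was 0.544, 0.627 and 0.769 FPKM untreated and 14.4, 5.34 and 12.4 treated (2.73 ± 0.34, adjusted p = 1.17e-06). Its lowest treated value came from replicate 2 and still lay far above the untreated libraries. CDH24 and PFKFB4, like CD70, TNFAIP3, IFI6 and GAA below, reached 1 FPKM in treated libraries only, so the direction of these genes was fixed by the choice of members.

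TMEM54 (2.59), ALDOC (2.50), ENHO (2.34), CDKN1B (2.28), WNT10A (2.21), CD70 (2.17) and TMEM107 (2.14) followed in size. WNT10A encodes a secreted Wnt ligand, and its mean went from 2.35 to 14.7 FPKM. Several of these genes overlap exons of a neighbour, so unless the counting used strand, which the sources used here do not give, some reads could belong to the neighbour. By the GENCODE 29 annotation the shared part was 17.4% of the exon bases of TMEM54 (with HPCA), 20.1% of ENHO (with AL160270.1), 10.1% of ALDOC (with AC005726.4) and 14.3% of TUBA1A (with TUBA1C). Among genes named below, MAP3K14 shares 12.3% with MAP3K14-AS1. CD79B shares 13.8% and RRS1 11.4% with a neighbour on the same strand, which counting by strand would not separate.

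The largest falls centred on MYC and on genes of ribosome assembly. MYC was 115, 126 and 131 FPKM untreated and 17.3, 18.0 and 18.9 treated (log2 change -2.71 ± 0.18 SE, adjusted p = 4.15e-10). The groups were tight and far apart, with treated libraries at 0.146 of the untreated mean. CASC11, the long RNA gene beside MYC, went from a mean of 12.8 to 1.76 FPKM (-2.32). RRS1, MYBBP1A, RRP9, DDX21 and NOL6, factors of ribosome assembly, followed at -2.30, -2.22, -2.18, -2.12 and -2.096. HSPA8, the constitutive HSP70 chaperone, fell by 2.16 on the log2 scale, and TWNK, the helicase of mitochondrial DNA, by 2.11. The list of MYC, MAX and their partners did not follow MYC, with 4 of 11 members higher and 2 lower, MYC included, and 2 higher and 5 lower under the median-of-ratios scaling. DDN fell by 2.30 and shares 8.0% of its exon bases with DDN-AS1.

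**Figure D2:**
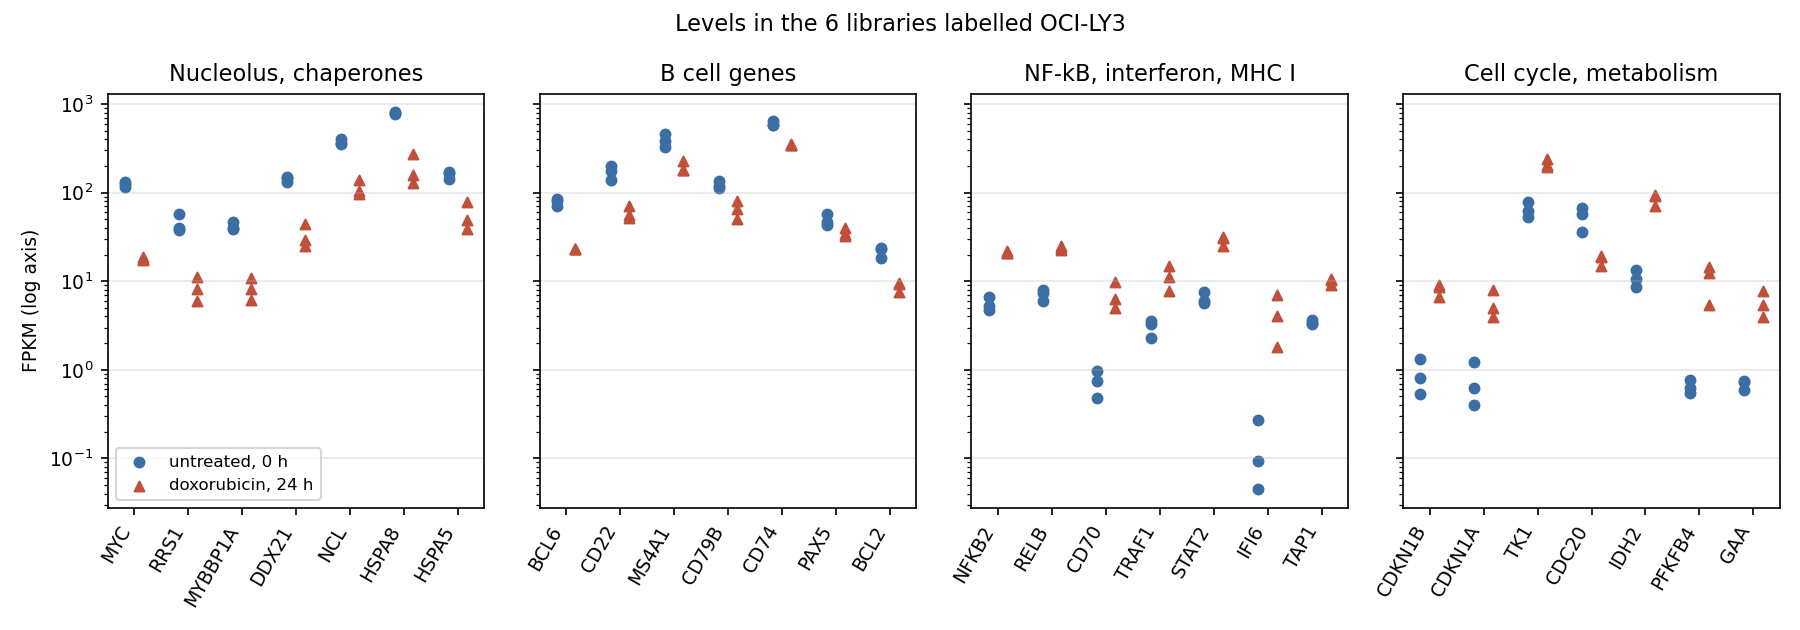
FPKM of 28 selected genes, on a log axis, in the 3 untreated libraries (circles) and the 3 treated libraries (triangles), each point being 1 library. MYC went from a mean of 124 to 18.1 FPKM, IDH2 from 10.9 to 85.8 and STAT2 from 6.37 to 28.99, and the groups did not overlap in these genes.

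Ribosome biogenesis was the list with the most uniform movement. Of 33 factors 32 were members, and all 32 fell, 25 of them at least 2-fold, with a median log2 change of -1.30 beside 0.20 over all genes. DDX21, an RNA helicase of nucleolar transcription and processing, was 151, 145 and 132 FPKM untreated and 25.2, 44.4 and 29.2 treated (-2.12 ± 0.14, adjusted p = 5.23e-10). Nucleolin (NCL) went from 398, 349 and 359 to 97.3, 140 and 104 FPKM (-1.70 ± 0.13). Nucleophosmin (NPM1) went from 508, 435 and 492 to 196, 196 and 205 FPKM (-1.26 ± 0.08, adjusted p = 4.77e-10). Within the list the smallest falls belonged to the methyltransferase fibrillarin (FBL, -0.57) and the small subunit nuclease NOB1 (-0.55). The proteins of the finished ribosome moved less. Of 30 cytosolic ribosomal protein genes 1 rose and 11 fell, with a median of -0.17, with 0 higher and 23 lower under the median-of-ratios scaling and 5 higher and 1 lower after quantile normalization.

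Purine synthesis had 8 of 12 genes lower and 2 higher (median -0.48), among them PFAS, which acts in de novo purine synthesis (-1.17). The pyrimidine and deoxynucleotide list had 7 of 16 higher and 6 lower (median 0.12), and 6 and 6 under the median-of-ratios scaling. Its genes for making deoxynucleotides were among those that rose. Thymidine kinase TK1 was 61.4, 52.9 and 79.0 FPKM untreated and 204, 195 and 237 treated (1.72 ± 0.14, adjusted p = 7.77e-09), with no treated library below any untreated one. The ribonucleotide reductase subunit RRM1 rose by 0.95 and thymidylate synthase TYMS by 0.89, of which TYMS shares 39.1% of its exon bases with ENOSF1. The folate enzyme MTHFD1L (-1.20) and CAD, which begins pyrimidine synthesis (-0.92), were among those that fell.

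Of 20 cytosolic aminoacyl-tRNA synthetase genes, which charge tRNA for translation, 15 fell and 2 rose (median -0.48), with FARSB at -1.16. The ATF4 list of the amino acid response had 3 of 13 higher and 5 lower. ATF4 itself fell by 0.99 on the log2 scale, and SLC7A5, the large neutral amino acid transporter, went from 96.9, 88.9 and 100 to 31.3, 39.5 and 38.1 FPKM (-1.38 ± 0.13).

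Chaperone genes were lower. Of 18 heat shock chaperone genes 16 were members, of which 14 fell and 1 rose, with a median of -0.98. HSPA8 was 772, 804 and 798 FPKM untreated and 128, 272 and 157 treated (-2.16 ± 0.20, adjusted p = 3.08e-08), and treated replicate 2 was again the closest to the untreated libraries. HSP90AB1 fell by 1.51, HSPH1 by 1.47 and the mitochondrial HSPA9 by 1.25 on the log2 scale. BAG3, a co-chaperone of HSP70 in protein disposal, was the member that rose (0.79). In the endoplasmic reticulum list 13 of 19 genes fell and 1 rose (median -0.41). HSPA5, the lumenal HSP70 called BiP, went from 170, 166 and 144 to 38.3, 77.4 and 48.6 FPKM (-1.59 ± 0.17). The proteasome list, 25 genes, had 9 lower and 1 higher (median -0.14), and 20 lower and none higher under the median-of-ratios scaling.

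The 250 bases before the transcription start of HSPA8 (RefSeq, GRCh38.p14, chr11:123062137-123062386, minus strand) are shown for the heat shock element. It was searched as GAA, 2 bases, TTC, 2 bases and GAA on both strands. Capitals mark its 2 matches, which begin 230 and 55 bases before the start.

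HSPA8: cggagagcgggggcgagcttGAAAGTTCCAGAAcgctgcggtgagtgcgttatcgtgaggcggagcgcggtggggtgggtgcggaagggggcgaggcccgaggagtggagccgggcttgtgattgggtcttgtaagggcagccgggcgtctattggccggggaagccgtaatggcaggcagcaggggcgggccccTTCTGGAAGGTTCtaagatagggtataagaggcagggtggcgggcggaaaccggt

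This element was present in 0.439% of 27305 RefSeq promoters of that length and in 1 of the 15 promoters found for chaperone members, that of HSPA8. The shares were 0.216% for the promoters of all members that rose and 0.465% for those that fell.

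Genes of B cell identity were mostly lower. Of 22 B cell transcription factors 20 were members, with 12 lower, 1 higher and a median of -0.39. MEF2C fell by 0.92 on the log2 scale, EBF1 by 0.78, IRF8 by 0.70 and PAX5, which commits cells to the B lineage, by 0.46. BCL6 was 79.4, 83.7 and 71.4 FPKM untreated and 23.0, 23.0 and 22.8 treated (-1.72 ± 0.12, adjusted p = 8.24e-10), so the treated libraries were nearly equal and far below the lowest untreated one. Other germinal center genes moved less or in the other direction. Of 16 germinal center genes 15 were members, with 6 lower and 2 higher (median -0.14). RGS13, which dampens chemokine signals, went from 46.5 to 16.8 FPKM (-1.41), S1PR2, a receptor that confines B cells to the follicle, fell by 0.82, and GCSAM rose by 0.54. IRF4 stayed below 1 FPKM in all 6 libraries, as given above.

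The antigen receptor list, 32 of 34 genes measured, had 9 higher and 13 lower (median 0.01), and 4 higher and 15 lower under the median-of-ratios scaling. CD22, the inhibitory sialic acid receptor and an antibody target in lymphoma, was 176, 200 and 139 FPKM untreated and 56.2, 71.4 and 52.1 treated (-1.501 ± 0.14, adjusted p = 4.34e-08). CSK, the kinase that restrains SRC family kinases, went from a mean of 115 to 44.4 FPKM (-1.36), and the receptor chain CD79B from 122 to 65.5 (-0.91). Among those higher were PRKCB, the protein kinase C isoform of B cells (1.64 to 5.45 FPKM, 1.26), and PIK3CD, the PI3 kinase delta subunit (0.66).

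Targets of antibodies and cell therapies were affected unequally. Of 18 surface antigens 14 were members, with 5 higher and 8 lower (median -0.36). MS4A1, which encodes CD20, the target of rituximab, was 379, 455 and 323 FPKM untreated and 180.6, 225.3 and 180.2 treated (-0.97 ± 0.14, adjusted p = 8.79e-06), without overlap. The transferrin receptor TFRC fell by 1.24. In contrast CD70, the ligand of CD27, was 0.474, 0.966 and 0.741 FPKM untreated and 6.24, 4.92 and 9.76 treated (2.17 ± 0.15, adjusted p = 6.94e-10), and CD40 rose from 14.2, 22.05 and 11.7 to 30.2, 31.9 and 31.7 FPKM (0.97 ± 0.22).

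MHC class II presentation had 3 of 17 members higher and 8 lower (median -0.17). The invariant chain CD74 was 585, 643 and 576 FPKM untreated and 344, 357 and 344 treated (-0.78 ± 0.07, adjusted p = 4.66e-08). HLA-DRA fell by 0.55 on the log2 scale. The class II activator CIITA did not pass (6.29 to 5.91 FPKM, adjusted p = 0.596) but was called lower under the median-of-ratios scaling (-0.28), while RFXAP, a subunit of the factor that binds class II promoters, rose by 0.56 and HLA-DOA, a modulator of peptide loading, by 0.44, a call lost after quantile normalization (0.15).

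Within non-canonical NF-kB the 2 subunit genes rose most. Of 15 listed genes 11 were members, with 7 higher and 1 lower and a median of 0.52, beside 45.6% and 18.2% of all genes. The median-of-ratios scaling gave 6 higher and 3 lower, and quantile normalization 5 and 2 (median 0.23). The subunits had a median of 1.71, while the 3 receptor members ran from -0.89 to 0.97 (median 0.08). TRAF3, listed as a brake, was 8.50, 8.75 and 9.12 FPKM untreated and 7.99, 9.66 and 8.19 treated. NFKB2 was 4.73, 6.59 and 5.21 FPKM untreated and 20.96, 22.05 and 21.07 treated (1.79 ± 0.14, adjusted p = 3.67e-09). RELB, its partner, was 5.92, 7.29 and 7.99 FPKM untreated and 23.6, 22.6 and 24.8 treated (1.62 ± 0.13, adjusted p = 7.23e-09). In both genes the treated libraries lay close together and at least 2-fold above the highest untreated one. BIRC3, a ubiquitin ligase of the complex that degrades NIK, rose by 1.07 and MAP3K14, which encodes NIK, by 0.52, a call lost after quantile normalization (0.23). RNA levels say nothing of p52 processing, which was not measured in these libraries.

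Canonical components rose in 13 of 21 members and fell in 1 (median 0.35; 9 higher and 4 lower under the median-of-ratios scaling). The nuclear cofactor BCL3 was 1.46, 2.18 and 2.01 FPKM untreated and 7.08, 5.91 and 8.24 treated (1.49 ± 0.12, adjusted p = 3.93e-09), and the inhibitor NFKBIA, itself a target gene, rose by 1.04. Among target genes 12 of 17 members rose and 1 fell, with a median of 0.69, and 10 of the 15 at the level in both groups rose. TRAF1 went from 3.32, 3.56 and 2.28 to 14.9, 7.78 and 11.01 FPKM (1.57 ± 0.22, adjusted p = 4.92e-06), BCL2A1, an anti-apoptotic target, from a mean of 2.15 to 6.64 (1.31), and TNFAIP3, the deubiquitinase A20, from 0.488 to 1.52 (0.77). The adaptor list of MYD88 and Toll-like receptors was mixed, with 5 of 12 members higher and 3 lower, and 3 and 3 of the 10 at the level in both groups, TLR10 (-0.91) and the receptor chaperone UNC93B1 (-0.89) among the latter.

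The 250 bases before the NFKB2 start (RefSeq, GRCh38.p14, chr10:102393860-102394109, plus strand) are shown because NFKB2 had the largest change in its list. Capitals mark the match to the kB motif, here GGGA and CC with 4 bases between them, searched on both strands, 24 bases before the start.

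NFKB2: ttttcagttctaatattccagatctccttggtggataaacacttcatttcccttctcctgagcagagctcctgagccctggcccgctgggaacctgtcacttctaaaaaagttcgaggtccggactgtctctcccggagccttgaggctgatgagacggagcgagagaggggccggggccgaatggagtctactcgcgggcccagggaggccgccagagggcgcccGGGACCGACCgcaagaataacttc

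The motif was found in 22.1% of all 27305 promoters, in 4 of the 7 promoters found for members of the non-canonical list (57.1%) and in 6 of 16 target gene promoters (37.5%). It was also found in 28.3% of the promoters of all members that rose, in 24.5% of those that fell, in 37.0% of the ribosome biogenesis promoters and in 4 of the 7 for inhibitors of cyclin-dependent kinases.

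Interferon-stimulated genes and genes of MHC class I presentation were mostly higher. Of 48 interferon-stimulated genes 23 were members, 17 rose, 9 of them at least 2-fold, and none fell, with a median of 0.58. Of the 23, 7 reached the level of 1 FPKM in the libraries of 1 group only, so part of that count was fixed by the choice of members. Of the other 16, 10 rose, beside 5269 of the 12408 genes at the level in both groups. STAT2, a transcription factor that carries interferon signals to the nucleus, was 5.96, 7.53 and 5.60 FPKM untreated and 31.5, 25.1 and 30.4 treated (2.03 ± 0.10, adjusted p = 2.67e-11). IFI6 was 0.272, 0.0450 and 0.0929 FPKM untreated and 4.02, 1.83 and 7.06 treated (2.10 ± 0.28, adjusted p = 3.02e-06). ISG15, a ubiquitin-like modifier, was 13.5, 14.3 and 24.0 FPKM untreated and 42.0, 38.9 and 57.2 treated (1.39 ± 0.18, adjusted p = 1.67e-06). The groups did not overlap in any of these genes. In the JAK-STAT3 list 8 of 15 members rose and none fell, beside 45.6% and 18.2% of all genes. STAT3 was at 0.64 and the kinase gene PIM1 at 1.03, and the median-of-ratios scaling gave 8 higher and 3 lower.

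The MHC class I list had 15 of 18 members higher and 2 lower, with a median of 0.72, and 14 of the 17 at the level in both groups rose. The peptide transporter TAP1 was 3.64, 3.33 and 3.39 FPKM untreated and 9.01, 10.4 and 10.4 treated (1.30 ± 0.07, adjusted p = 9.86e-11), and the immunoproteasome subunit PSMB9 rose from 3.37 to 11.5 (1.51).

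Promoters of IFI6 (chr1:27672193-27672442, minus strand) and ISG15 (chr1:1013247-1013496, plus strand) are shown, as the 250 bases before the start in RefSeq on GRCh38.p14, because the interferon response element core, GAAA repeated after 2 bases on either strand, was common in this list. Capitals mark the matches. IFI6 has 3, beginning 156, 115 and 93 bases before the start, and ISG15 has 2 that overlap, beginning 113 and 107 bases before it.

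IFI6: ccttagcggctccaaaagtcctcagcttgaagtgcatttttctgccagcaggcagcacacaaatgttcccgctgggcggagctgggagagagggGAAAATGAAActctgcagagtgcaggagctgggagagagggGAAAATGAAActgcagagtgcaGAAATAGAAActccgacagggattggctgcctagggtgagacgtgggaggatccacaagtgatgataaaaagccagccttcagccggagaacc
ISG15: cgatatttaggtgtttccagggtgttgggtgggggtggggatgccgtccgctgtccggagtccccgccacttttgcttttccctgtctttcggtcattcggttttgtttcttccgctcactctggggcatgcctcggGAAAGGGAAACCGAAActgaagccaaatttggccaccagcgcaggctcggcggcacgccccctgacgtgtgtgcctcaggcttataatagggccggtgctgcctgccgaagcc

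The core occurred in 3.07% of 27305 promoters, in 7 of 17 promoters found for interferon-stimulated members (41.2%) and in 6 of 14 of the MHC class I members (42.9%), beside 1.85% of the promoters of all members that rose and 3.02% of those that fell.

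The inhibitors of cyclin-dependent kinases rose in 6 of 7 members and fell in none (median 1.12), and 5 of the 6 at the level in both groups rose. CDKN1B, which encodes p27, was 0.536, 0.812 and 1.31 FPKM untreated and 8.49, 6.71 and 9.03 treated (2.28 ± 0.16, adjusted p = 8.15e-10). CDKN1A, which encodes p21, was 0.395, 0.620 and 1.21 FPKM untreated and 5.03, 3.93 and 7.90 treated (1.91 ± 0.16, adjusted p = 9.33e-09). Both remained below 10 FPKM in every treated library, and in both the highest untreated value, from replicate 3, stayed below the lowest treated one.

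Genes of G1 and the entry into S phase rose in 11 of 17 members and fell in 4 (median 0.35; 6 and 5 under the median-of-ratios scaling). CDK2 went from a mean of 31.0 to 82.9 FPKM (1.39), CCNE2, a cyclin E gene, from 14.9 to 37.1 (1.26) and the repressor E2F7 from 2.78 to 11.2 (1.68). E2F4 fell from 43.0 to 19.7 FPKM (-1.09). CCNE2 shares 37.0% of its exon bases with INTS8 and CDK2 14.5% with a neighbour. Among 39 replication genes 29 rose and 2 fell (median 0.49), with the replisome gene TIMELESS at 1.20 and the GINS subunit gene GINS4 at 1.26. Quantile normalization gave 31 higher and none lower, and the median-of-ratios scaling gave 17 and 3. GINS4 shares 21.2% of its exon bases with AC009630.2.

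Mitosis genes had no common direction on the deposited scale, with 8 of 30 members higher, 7 lower and a median of -0.01, and with 4 higher and 13 lower under the median-of-ratios scaling. CDC20, the activator of the anaphase-promoting complex, was 57.2, 36.1 and 67.3 FPKM untreated and 15.0, 19.2 and 18.8 treated (-1.51 ± 0.22, adjusted p = 9.74e-06). PLK1 fell by 0.94 and FOXM1, which drives genes of late G2, rose by 0.90. Untreated replicate 2 was the lowest untreated library for CDC20 and for TOP2A, given below, and it stayed above the treated libraries for CDC20. FOXM1 shares 15.9% of its exon bases with ITFG2 and PLK1 11.6% with a neighbour.

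MDM2, which encodes a ubiquitin ligase, was 8.51, 10.3 and 8.70 FPKM untreated and 7.55, 9.27 and 6.80 treated (-0.20 ± 0.10, adjusted p = 0.0891), with overlapping groups. It was called lower when treated replicate 2 was left out (-0.31), in the fit blocked on replicate number, and under the median-of-ratios scaling (-0.42). DDB2, a damage sensor of nucleotide excision repair, rose from 4.49 to 15.5 FPKM (1.58) and PIDD1, of the PIDDosome, from 4.49 to 16.3 (1.65). The exonuclease gene AEN fell from 11.6 to 4.25 (-1.28) and BTG2, an antiproliferative gene, from 78.5 to 54.2 (-0.52).

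Homologous recombination and Fanconi anemia genes rose in 19 of 24 and fell in 1 (median 0.47), with BRCA1 at 1.06, the helicase BRIP1 at 1.25 and FANCG at 1.28, and FANCF of the Fanconi core complex as the member that fell (-0.27). Break sensor and end joining genes had 4 of 16 members higher and 8 lower (median -0.19), with NBN of the MRN complex at -0.65. Excision repair had 13 of 22 higher and 7 lower (9 and 9 under the median-of-ratios scaling), and its abasic site nuclease APEX1 went from 139 to 59.0 FPKM (-1.23).

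Of the enzymes that the drug traps, topoisomerase IIα did not pass the test and IIβ fell. TOP2A, the topoisomerase II of dividing cells, was 100, 66.8 and 94.0 FPKM untreated and 102, 107 and 97.6 treated (0.25, adjusted p = 0.234). Untreated replicate 2 lay below the other 5 libraries, and quantile normalization called TOP2A higher (0.47). TOP2B was 65.6, 55.5 and 58.0 FPKM untreated and 43.9, 41.9 and 38.5 treated (-0.51 ± 0.11, adjusted p = 5.45e-04), below every untreated library. Of 22 genes of anthracycline transport and metabolism 11 were members, with 6 higher and 1 lower, and with 3 and 3 under the median-of-ratios scaling.

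Of 20 pro-apoptotic members 11 rose and 2 fell (median 0.42; 10 and 4 under the median-of-ratios scaling), and 9 rose and 2 fell among the 18 at the level in both groups, beside 45.6% and 18.2% of all genes. BMF, a BH3-only activator of cell death, was 5.13, 7.38 and 6.52 FPKM untreated and 20.5, 18.3 and 21.9 treated (1.54 ± 0.12, adjusted p = 4.16e-09). BAD rose by 1.37 and shares 23.7% of its exon bases with GPR137, the caspase gene CASP6 rose by 1.15 and APAF1, the apoptosome scaffold, by 1.06. Of 11 survival genes 6 rose and 1 fell, and 4 and 1 of the 9 at the level in both groups, near the shares of all genes. The median of those 9 was 0.05, beside 0.20 over all genes. BCL2, the target of venetoclax, was the member that fell, at 23.4, 24.0 and 18.2 FPKM untreated and 9.21, 9.58 and 7.54 treated (-1.22 ± 0.09, adjusted p = 2.64e-09). BCL2L1 rose by 0.77, with 43.0% of its exon bases shared with ABALON. MCL1 did not pass (70.3 to 72.7 FPKM), and it was called lower by limma under the median-of-ratios scaling (-0.19, adjusted p = 0.0219).

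Glycolysis, 28 of 38 listed genes measured, had 14 higher and 4 lower (median 0.28), beside 45.6% and 18.2% of all genes. The median-of-ratios scaling gave 10 higher and 8 lower. ALDOC, the aldolase of brain, was 2.88, 6.14 and 4.43 FPKM untreated and 41.5, 13.3 and 43.7 treated (2.50 ± 0.40, adjusted p = 2.50e-05). Treated replicate 2 was the low one here, as for PFKFB4, and it lay above the untreated libraries in both genes. ENO2, the neuronal enolase, rose from 19.4 to 59.0 FPKM (1.54). HK2, the hexokinase of proliferating cells, and PFKM, the muscle phosphofructokinase, fell by 0.36 and 0.65 on the log2 scale.

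IDH2 stood apart within the TCA cycle list, which had 13 of 28 members higher, 10 lower and a median of 0.00, with 10 higher and 15 lower under the median-of-ratios scaling. Among the members that fell were DLAT, of pyruvate dehydrogenase, at -0.78, and IDH3A, of the NAD-dependent isocitrate dehydrogenase, at -0.62, the latter sharing 38.2% of its exon bases with ACSBG1. Nuclear respiratory chain genes had 5 of 30 higher and 6 lower, with 1 and 14 under the median-of-ratios scaling and 9 and 4 after quantile normalization. Of 13 mitochondrially encoded mRNAs 6 rose and none fell (median 0.23, near that of all genes), and under the median-of-ratios scaling 2 rose and 2 fell.

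Hypoxia response genes rose in 14 of 15 members and none fell (median 0.77; 9 higher and 1 lower under the median-of-ratios scaling). BNIP3, a mitophagy receptor, was 8.67, 8.46 and 8.92 FPKM untreated and 34.4, 18.0 and 33.8 treated (1.56 ± 0.23, adjusted p = 9.88e-06). The untreated libraries were nearly equal, and treated replicate 2 was again the lowest treated one. BNIP3L rose from 10.2 to 40.7 FPKM (1.87), WSB1 from 7.75 to 25.1 (1.55) and the prolyl hydroxylase subunit P4HA1 from 13.6 to 33.1 (1.20). Oxygen in the cultures was not part of the labels, and its part in the result was not tested.

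Promoters of ALDOC (chr17:28576896-28577145, minus strand) and BNIP3 (chr10:131981924-131982173, minus strand) are shown as the 250 bases before the start in RefSeq on GRCh38.p14, with matches to the hypoxia element core ACGTG, on either strand, in capitals. ALDOC has 3, of which 2 overlap, beginning 240, 239 and 28 bases before the start. BNIP3 has 2 that overlap, beginning 134 and 133 bases before it. Overlapping matches on opposite strands form CACGTG, which is also the E-box of MYC and of TFEB.

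ALDOC: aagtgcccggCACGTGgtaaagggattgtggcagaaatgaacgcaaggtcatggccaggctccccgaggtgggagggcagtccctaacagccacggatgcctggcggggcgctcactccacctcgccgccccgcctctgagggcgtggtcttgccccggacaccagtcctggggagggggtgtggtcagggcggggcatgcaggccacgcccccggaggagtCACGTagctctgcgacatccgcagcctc
BNIP3: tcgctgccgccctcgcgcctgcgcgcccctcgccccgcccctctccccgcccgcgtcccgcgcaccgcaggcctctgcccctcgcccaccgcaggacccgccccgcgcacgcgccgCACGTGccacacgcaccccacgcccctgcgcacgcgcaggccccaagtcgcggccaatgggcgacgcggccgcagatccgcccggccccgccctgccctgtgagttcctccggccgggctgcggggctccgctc

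ACGTG was found in 18.7% of the 27305 promoters and in 9 of the 12 found for hypoxia members (75.0%), beside 22.6% of the promoters of all members that rose and 27.7% of those that fell.

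Lysosome and autophagy genes rose in 27 of 37 members and fell in 2 (median 0.46; 17 and 5 under the median-of-ratios scaling), and 24 of the 34 at the level in both groups rose. GAA, lysosomal alpha-glucosidase, was 0.730, 0.593 and 0.740 FPKM untreated and 7.74, 3.92 and 5.33 treated (1.94 ± 0.14, adjusted p = 1.07e-09). The lowest treated value was more than 5-fold above the highest untreated one. The cathepsin genes CTSB and CTSH rose by 1.47 and 1.48, while TFEB, the transcription factor of lysosomal genes, fell by 0.48 on the log2 scale.

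The GAA promoter (RefSeq, GRCh38.p14, chr17:80101331-80101580, plus strand, 250 bases before the start) is shown for its 2 matches to CACGTG, in capitals, beginning 76 and 31 bases before the start. The motif reads the same on both strands.

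GAA: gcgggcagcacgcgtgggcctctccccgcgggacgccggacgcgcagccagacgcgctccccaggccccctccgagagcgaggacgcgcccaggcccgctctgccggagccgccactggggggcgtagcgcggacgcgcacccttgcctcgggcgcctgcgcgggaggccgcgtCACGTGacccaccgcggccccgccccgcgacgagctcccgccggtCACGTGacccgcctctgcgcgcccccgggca

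CACGTG occurred in 6.49% of 27305 promoters and in 9 of 26 found for lysosome and autophagy members (34.6%). It was not particular to this list, with 4 of 12 for hypoxia (33.3%), 3 of 10 for MYC and MAX (30.0%) and 6 of 23 for nucleotide synthesis (26.1%). Ribosome biogenesis members had 2 of 27 (7.41%). The shares were 8.24% for the promoters of all members that rose and 10.7% for those that fell.

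Lipid and iron genes moved singly. The sterol and fatty acid list had 11 of 31 members higher and 4 lower (median 0.12; 8 and 9 under the median-of-ratios scaling), with fatty acid synthase FASN at -1.39 and the desaturases FADS1 and FADS2 at 1.22 and 1.34. In the NRF2 list 5 of 17 rose and 2 fell, and under the median-of-ratios scaling 5 rose and 8 fell. FTH1, ferritin heavy chain, rose by 1.03, with 62.4% of its exon bases shared with BEST1, and GPX4, the lipid peroxide reductase, by 1.12.

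Among the remaining lists, long non-coding RNAs had 1 of 19 members higher and 11 lower (median -0.42). MIR17HG, the host of the miR-17 cluster, went from a mean of 7.01 to 1.67 FPKM (-1.56), and NEAT1, the scaffold of paraspeckles, rose by 0.69, a call lost without untreated replicate 3 (0.43). Cytoskeleton genes had 10 of 19 higher and 7 lower, beside 45.6% and 18.2% of all genes, with CORO1A, an actin regulator of lymphocytes, at -1.20. The DNA methyltransferase gene DNMT3B rose from 1.70 to 6.83 FPKM (1.53). Its chromatin list had 10 of 24 higher, near the share of all genes, and 1 lower, and gave 5 and 11 under the median-of-ratios scaling. All 3 cytidine deaminase members rose, with APOBEC3C at 11.3 to 33.4 FPKM (1.48). In the cadherin list the 3 members at the level in both groups rose, CTNNA1 (1.27) among them.

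The responses of the other lines were compared by the difference between responses in one model. Every such difference uses the same 6 libraries labelled OCI-LY3, so the comparisons with the 3 lines are not independent. The response differed from that of HT in 4585 of the 13271 genes (34.5%), from that of OCI-LY19 in 6786 (51.1%) and from that of SUDHL5 in 7408 (55.8%), at an adjusted p below 0.05. On the deposited values, more genes had the higher change here than the lower one in each case. The counts were 3142 (23.7%) against 1443 for HT, 4536 (34.2%) against 2250 for OCI-LY19 and 5268 (39.7%) against 2140 for SUDHL5. Median-of-ratios factors were 0.891 to 0.923 in untreated and 1.061 to 1.088 in treated libraries here. They were 1.058 to 1.088 and 1.105 to 1.153 in HT, and 0.963 to 0.994 and 1.012 to 1.036 in OCI-LY19. In SUDHL5 they were 0.924 to 0.937 and 0.906 to 0.908. The deposited values keep this larger shift here, which limits the reading of the split and of the list medians below. Under that scaling only part of these genes were called again.

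MYC fell in all 4 lines, by 2.71 on the log2 scale here, and the fall was larger than in HT (-1.24, adjusted p of the difference 2.15e-04), OCI-LY19 (-0.69, 1.86e-06) and SUDHL5 (-0.72, 2.30e-06). The median of the 32 ribosome biogenesis genes was -1.30 here, -0.53 in HT, -0.80 in OCI-LY19 and -0.25 in SUDHL5, and the response differed in 27, 20 and 29 of them in that order. RGS13 fell here (-1.41) and rose in OCI-LY19 (1.997, adjusted p of the difference 9.97e-11), where its untreated mean was 0.613 FPKM.

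MDM2 rose by 3.77 in OCI-LY19 and by 1.98 in SUDHL5, against -0.20 here (adjusted p of the difference 1.22e-13 and 6.66e-10), whereas in HT it was -0.11 and the difference did not pass (0.706). BTG2 rose by 3.90 in OCI-LY19 and fell by 0.52 here (7.63e-13).

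Replication and mitosis genes had medians below 0 in OCI-LY19 and SUDHL5. The replication median was 0.49 here and 0.20, -0.83 and -0.42 in HT, OCI-LY19 and SUDHL5, with 9, 38 and 32 of 39 genes differing. The mitosis median was -0.01 here and -0.16, -1.25 and -0.78 in the other lines, with 4, 28 and 21 of 30 genes differing. Inhibitors of cyclin-dependent kinases had a median of 1.12 here and 0.48, 0.01 and -0.51 in the others, with 3, 7 and 7 of 7 differing.

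NF-kB and metabolic genes followed other borders. NFKB2 rose by 1.79 here, 1.32 in HT and 1.45 in OCI-LY19, where the differences from these libraries did not pass (adjusted p 0.0794 and 0.172). In SUDHL5 its change was 0.19 and did not pass, from an untreated mean of 57.4 FPKM, and that difference did (1.94e-06). The hypoxia list had a median of 0.77 here and 1.12, 0.52 and -1.62 in HT, OCI-LY19 and SUDHL5, with 3, 9 and all 15 members differing. PFKFB4 rose by 2.73 here, 2.34 in HT and 2.65 in OCI-LY19 and fell by 3.30 in SUDHL5. ALDOC rose in HT (2.79) as here and fell in OCI-LY19 (-1.06) and SUDHL5 (-1.78). IDH2 rose by 2.88 here and 2.36 in HT, and was -0.24 in OCI-LY19 and 0.41 in SUDHL5. MHC class II had a median of -0.17 here and 0.30, 0.38 and 0.83 in the other lines, where 9, 13 and 17 of 17 members differed, with CD74 rising by 0.89 in SUDHL5 (adjusted p of the difference 6.70e-10).

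**Figure D3:**
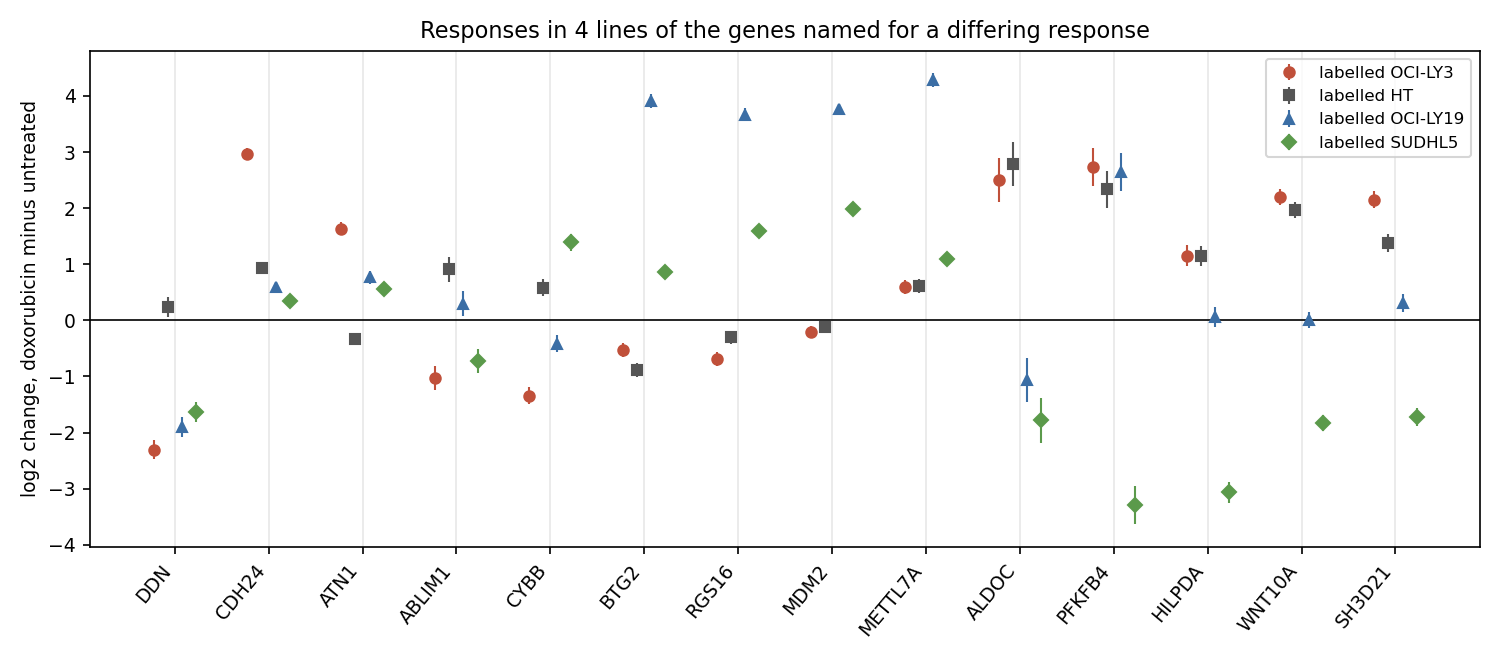
Log2 change after doxorubicin of selected genes in the libraries labelled OCI-LY3 and in HT, OCI-LY19 and SUDHL5. Points are log2 changes on log2(FPKM + 1) and error bars are standard errors from the fit over all lines; MDM2 lies near 0 here and in HT and at 3.77 in OCI-LY19, and PFKFB4 lies at 2.73 here and at -3.30 in SUDHL5.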

How the data were processed

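Poly(A)-selected RNA was sequenced with a directional kit, in biological triplicates, per the labels' protocols. Trimmomatic, STAR, featureCounts and the build hg38 are named by the submitters' processing notes. An annotation release was not given in the sources used here, nor was featureCounts' strand option. The deposited table holds FPKM values of 60656 genes, computed by the authors. Whole reads were recovered from them with GENCODE 29 exon lengths for 24743 genes. With annotated lengths 100.0% of values were whole within 0.01 read, and these lengths gave the depths. For 17831 other genes the length was solved from the values as the smallest that made the reads whole, so wholeness is no check there. At these depths genes near 1 FPKM are measured with less precision.

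Values were tested as log2(FPKM + 1) with limma 3.58.1 (R 4.3.3), with a mean-variance trend, 8 groups of 3 libraries in one fit and a filter of FPKM at least 1 in at least 3 of 24 libraries. Differences between lines were interaction contrasts. Python 3.11.15, pandas 2.3.3, numpy 2.4.6 and matplotlib 3.10.9 made the tables and plots. The method was tested on simulated data. As alternatives other pseudocounts, filters, scalings, voom on recovered reads (5950 genes higher and 2376 lower), a replicate block and left-out libraries were tried. Promoters came from RefSeq (GRCh38.p14).

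Members and gene lists were chosen with earlier results of these data known. Named genes were the 15 largest rises and falls that passed, without overlap and with a mean of at least 10 FPKM in the higher group, the 4 largest passing changes of each list with a mean of at least 5 FPKM, a fixed set of core genes, list members that moved against the majority, and the 5 largest differences from each other line. Genes without a proper symbol, pseudogenes and receptor segments were left out, and some further genes are not reported here. LMO2, ELL3, MAML3, JCHAIN, MZB1, TNFRSF17, MME, NCL, NPM1, FBL, NOB1, CAD and IFI6 were named after their values were seen. The level of 1 FPKM is not a sharp border: 291 genes just inside it had a median mean of 0.965 FPKM and 351 just outside 0.865. Library names of untreated replicate 1 and treated replicate 3 differ from the others by a suffix whose meaning the labels do not give. Same-numbered libraries carrying the OCI-LY3 label share a code in their names, also used in HT and OCI-LY19, whose meaning the labels do not give. Correlations of deviations were -0.03, 0.11 and 0.43 between same-numbered and -0.296 to 0.253 between different-numbered libraries. Pairing could thus be neither established nor excluded. The main fit did not use it, and a fit blocked on the number is given below. P-values set each change against the spread between libraries within groups. That spread was pooled over all 24 libraries of the 4 lines and moderated over genes, so it is not that of the OCI-LY3 label alone. In a fit of the 6 libraries labelled OCI-LY3 alone, 5424 genes were called higher and 2096 lower. There limma's adjusted p was 3.86e-05 for CDH24 and 1.2e-04 for IDH2.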

Additional observations from a re-analysis of the deposited data

Results flagged for a closer look

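These results are those whose response in the libraries labelled OCI-LY3 differed from the response in another line by a test of the difference itself (limma interaction contrast, adjusted p below 0.05), the 5 with the largest differences per line being named. All share the same 6 libraries. On the deposited values, the number of genes that differed was 4585 against HT, 6786 against OCI-LY19 and 7408 against SUDHL5.

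Against HT, the differences in log2 response were -2.54 for DDN, a gene of neuronal dendrites, 2.04 for CDH24, 1.96 for ATN1, -1.94 for ABLIM1, an actin-binding protein gene, and -1.93 for CYBB, the catalytic subunit of the phagocyte oxidase. DDN fell by 2.30 here and was 0.24 in HT, and CYBB fell by 1.34 here and was 0.58 in HT.

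Against OCI-LY19, the differences were -4.42 for BTG2, -4.36 for RGS16, a regulator of G protein signalling, -3.97 for MDM2, -3.68 for METTL7A and 3.56 for ALDOC. RGS16 fell by 0.69 here and rose by 3.67 in OCI-LY19, and METTL7A was 0.60 here and 4.28 in OCI-LY19.

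Against SUDHL5, the differences were 6.03 for PFKFB4, 4.28 for ALDOC, 4.22 for HILPDA, a lipid droplet protein gene induced by low oxygen, 4.03 for WNT10A and 3.87 for SH3D21. HILPDA rose by 1.16 here and fell by 3.07 in SUDHL5, and WNT10A rose by 2.21 here and fell by 1.83 in SUDHL5.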

How the results depend on the processing

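Counts of genes depended on scale and filter. The 6056 genes higher became 3384 with a filter at FPKM 5 (fewer genes tested) and 3927 after quantile normalization, and the 2410 lower became 4041 under the median-of-ratios scaling. The 983 genes at least 2-fold higher became 1910 with a pseudocount of 0.1, 481 with the filter at FPKM 5, 1642 on the TPM scale, 593 under the median-of-ratios scaling, 451 after quantile normalization and 2023 with voom; the 307 at least 2-fold lower became 574 under the median-of-ratios scaling. The 7408 genes differing from SUDHL5 became 4867 with the filter at FPKM 5. Of 344 results, the median-of-ratios scaling left 28 below the threshold and turned the sign of 8. The 8 were RPL10 -0.0509, LYN -0.0434, HLA-DMA -6.42e-04, MCL1 -0.19, NDUFA10 -0.0511, COX6A1 -0.0406, ATF6 -0.0577 and PSMD2 -0.0425. These turns came with a scaling that lowered changes by unequal amounts, for example CDH24 from 2.97 to 2.825 and IDH2 from 2.88 to 2.645. Of the 8 turned genes only MCL1 passed the threshold there, as lower (limma adjusted p = 0.0219). Quantile normalization turned NDUFA10 (-3.69e-03), ATF6 (-0.0897) and CFL1 (0.0679). The cause of these was not tested.

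Leaving out each replicate in turn gave 5561 to 5992 genes higher, 2155 to 2390 lower, 866 to 1141 at least 2-fold higher and 258 to 374 at least 2-fold lower, with 3988 to 4584, 6418 to 6870 and 6874 to 7296 differing from HT, OCI-LY19 and SUDHL5. Leaving out both libraries with the differing name, an alternative chosen after seeing the data, gave 5466 higher and 2082 lower. With the replicate number as a block, for which pairing could not be established, 6331 were higher, 2615 lower, 984 and 307 at least 2-fold higher and lower, and 5260, 7346 and 7946 differed from the 3 lines. Drug and culture time cannot be told apart at any of these settings, and genes near 1 FPKM are limited by depth.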
